A study of Saccharomyces cerevisiae x Saccharomyces paradoxus and Saccharomyces cerevisiae and Saccharomyces paradoxus with 40 samples.

Results

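Messenger RNA of the yeast Saccharomyces paradoxus at M2, the end of meiosis II, was compared with that of Saccharomyces cerevisiae at the same stage. The comparison rests on 6 of the 40 libraries of the study, 3 of S. paradoxus and 3 of S. cerevisiae, and on all 3217 features of the deposited count table that name a gene. Of these, 95 had no count in any of the 12 libraries of one species and some count in the other. These 95 are described apart, and 3050 other genes passed the filter on low counts and were tested. Those of the 95 that passed the filter stayed in the fit and in the adjustment of p. Of 3062 open reading frame names in the table, 3058 end in W, for the Watson strand. The gene lists below thus hold almost no gene of the other strand and do not stand for whole pathways. Every culture, of both species alike, was grown overnight in YPD, a rich glucose medium, and was washed into a poor medium of potassium acetate, on which diploid yeast starves and forms spores. Cells were taken on entering that medium (T0), as meiosis I began (M1), while meiosis I ended and meiosis II began (M1M2) and at M2, and polyadenylated RNA was sequenced. S. paradoxus and S. cerevisiae had 3 libraries a stage, called biological replicates in the series' design text, and their hybrid had 4. The labels used here give the parents by species and no strain name, and they do not say which hybrid libraries came from which of the reciprocal crosses, so these were pooled.

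Sporulation in budding yeast runs through a fixed order of gene expression. The kinase Ime2 and the early genes come on first for DNA replication and recombination. The transcription factor Ndt80 then turns on the middle genes for the divisions and the prospore membrane, and late genes build a wall of glucan, chitosan and dityrosine around each spore. Throughout, the cells burn acetate through the glyoxylate and TCA cycles and recycle their own nitrogen, sulfur and metals. Samples of a whole culture average over cells at slightly different points of this course, so that fewer cells in a state and less RNA per cell cannot be told apart.

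Counts in genes at M2 were 4163541, 300704 and 510407 in S. paradoxus replicates 1, 2 and 3, against 1309745, 1141629 and 745439 in S. cerevisiae. S. paradoxus replicate 2 was shallow and showed counts for 2300 of the listed genes. Across the tested genes, Spearman's rho between libraries was 0.645 to 0.840 within S. paradoxus and 0.700 to 0.861 within S. cerevisiae. S. cerevisiae replicate 1 stood apart from the other 2 of its species, with rho of 0.700 and 0.717 to them and 0.731 to S. paradoxus replicate 1. Levels are given as CPM, the share of the library's counts multiplied by 1e6 and scaled by TMM factors, and differences as S. paradoxus minus S. cerevisiae on the log2 scale ± SE from edgeR, with n = 3 libraries a group. A gene is called when its adjusted p is below 0.05, and only called genes are said to be higher or lower.

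No gene of the core meiotic lists was called at M2. The smallest difference called in any tested gene was 1.8 on the log2 scale, so even differences of several fold may have been missed. Of the genes in the table, none of 23 early meiotic genes and none of 25 middle genes was called. Their median differences were 0.10 and -0.05, beside -0.16 over all 3050 genes tested. The background of calls was 1.54%, or 47 genes, which in lists of this size is less than 1 gene. IME2, the kinase that starts meiosis, had 10758, 9248 and 8379 CPM in S. paradoxus and 9969, 3236 and 4328 CPM in S. cerevisiae, and the groups overlapped (0.70 ± 0.65). NDT80, which switches on the middle genes, had 6152, 5819 and 6548 CPM in S. paradoxus and 4867, 3345 and 3117 CPM in S. cerevisiae. Its S. paradoxus values were all above the S. cerevisiae values, yet the difference of 0.71 ± 0.64 had an adjusted p of 0.649. CLB1 and CLB3, cyclins of the meiotic divisions, differed by -0.25 ± 0.82 and 0.29 ± 0.62, with overlapping groups. Among the early genes the value closest to a call was that of GMC2, a protein of the synaptonemal complex, at 3.21 ± 0.94 with an adjusted p of 0.051, and GMC2 was picked out after its value was seen.

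Markers of sporulation were found in both species, and they were not used to tell M2 from the stages before. All 8 markers of sporulating diploids had counts in all 6 libraries and none was called, and their summed level was 45622 to 48074 CPM in S. paradoxus and 36192 to 48515 CPM in S. cerevisiae. Of 17 markers of haploid or mating cells 8 were in the table, with summed levels of 976 to 1805 CPM in S. paradoxus and 953 to 2791 CPM in S. cerevisiae. One of these 8, BAR1, was called. From T0 to M2 their median log2 change was 3.79 in S. paradoxus and 4.59 in S. cerevisiae, beside 7.19 and 7.10 for the sporulation markers. Of 11 markers of vegetatively dividing cells 5 were in the table, at 269.7 to 537.5 CPM in S. paradoxus and 1.63 to 273 CPM in S. cerevisiae, and none was called. S. cerevisiae replicate 1, at 1.63 CPM, had 3 of these 5 at 0, which are CLN1, PCL9 and EGT2. The part of these cells in the results was not tested.

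At the level of single genes 27 were higher in S. paradoxus (0.885% of the tested genes) and 20 were lower (0.656%). Counting these, 445 genes had an unadjusted p below 0.05. Called differences were large: the smallest was 1.8 and the median 3.49 in absolute log2 value. In 44 of the 47 the 3 S. paradoxus and 3 S. cerevisiae values did not overlap, which was also so for 22.3% of all tested genes. When the genes at 0 in a species were left out of the fit, 34 of the 47 were still called. Single libraries weighed heavily on the number of calls, which was 41, 30 and 25 without S. paradoxus replicates 1, 2 and 3, and 34, 8 and 20 without S. cerevisiae replicates 1, 2 and 3. Of the 47, just 3 were called in all 6 of these fits, namely CYS3, RTP1 and YPL257W, and 5 more were called in 5 of them, namely SER1, HSP150, ZRT1, MPH2 and SYF2. Among the 20 lower genes, S. cerevisiae replicate 1 was the S. cerevisiae library nearest to S. paradoxus in 16, and the shallow S. paradoxus replicate 2 was the lowest of its species in 15.

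**Figure D1:**
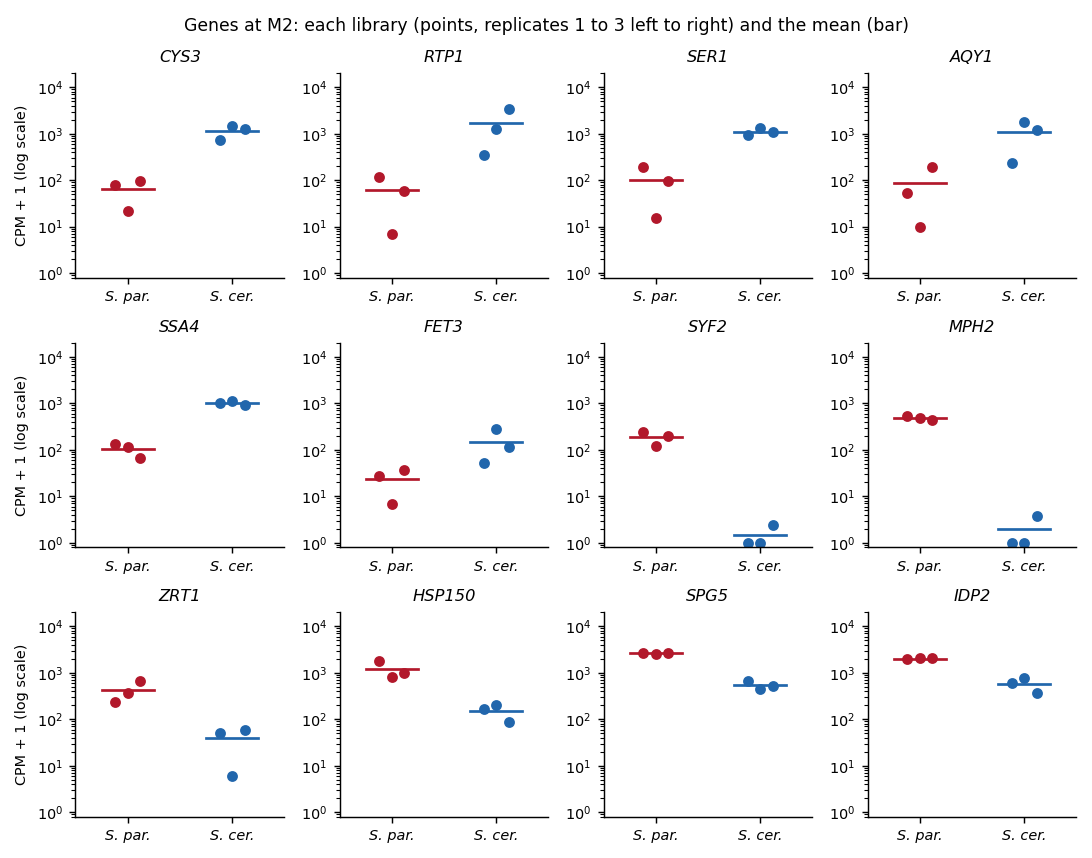
CPM + 1 on a log scale in each M2 library of 12 genes, S. paradoxus on the left and S. cerevisiae on the right of each panel. Points are replicates 1 to 3 from left to right and bars are group means. CYS3, RTP1, SER1, AQY1, SSA4 and FET3 are lower in S. paradoxus and SYF2, MPH2, ZRT1, HSP150, SPG5 and IDP2 higher. In all 12 panels the groups do not overlap, as in 22.3% of all tested genes. For genes named among the largest rises and falls this was a condition of the choice.

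Genes of amino acid synthesis and metal uptake were among those lower in S. paradoxus. CYS3 (YAL012W) encodes cystathionine gamma-lyase, which makes cysteine, and had 78.3, 20.5 and 97.0 CPM in S. paradoxus against 728, 1471 and 1284 CPM in S. cerevisiae. Every S. paradoxus library was far below every S. cerevisiae library, and the difference was -4.13 ± 0.87 (adjusted p = 0.00338; 0.0031 to 0.0326 with 1 library left out). SER1 (YOR184W), phosphoserine aminotransferase on the path to serine, had 193, 14.7 and 93.0 CPM in S. paradoxus against 925, 1295 and 1088 CPM in S. cerevisiae. The S. cerevisiae libraries lay close together and the difference was -3.43 ± 0.77 (adjusted p = 0.00657), which missed the threshold without S. paradoxus replicate 2 (adjusted p = 0.0519). FET3 (YMR058W), the copper oxidase of high-affinity iron uptake, had 26.9, 5.86 and 35.6 CPM in S. paradoxus against 51.2, 272 and 113 CPM in S. cerevisiae. Its groups came near each other at S. cerevisiae replicate 1, and the difference was -2.62 ± 0.67 (adjusted p = 0.0197). The call of FET3 was lost without S. paradoxus replicate 1 or 2 or S. cerevisiae replicate 2, with adjusted p up to 0.27.

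Few members of the lists these genes belong to were called. Each list count here and below is to be read beside the 1.54% called over all tested genes. Of 24 genes of sulfur and methionine metabolism, CYS3 was lower and HOM2 higher, 16 had negative differences and the median was -0.79, beside -0.16 over all genes tested. Of 33 genes of amino acid synthesis, SER1 alone was called, with a median of 0.05. Of 19 genes of iron and copper handling, FET3 alone was called, 14 had negative differences and the median was -0.73. HOM2 (YDR158W), aspartate semialdehyde dehydrogenase on the path to methionine and threonine, had 516, 973 and 445 CPM in S. paradoxus against 132, 125 and 89.6 CPM in S. cerevisiae. These groups were well apart at 2.47 ± 0.70 (adjusted p = 0.0387), but the call held in 0 of the 6 fits that left out 1 library (adjusted p 0.05 to 0.157).

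Components of translation were also called, in both directions. RPL40A (YIL148W), a ribosomal protein made as a fusion to ubiquitin, had 75.2, 44.0 and 43.5 CPM in S. paradoxus against 228, 847 and 713 CPM in S. cerevisiae. All its S. paradoxus values were below the S. cerevisiae values (-3.44 ± 0.81, adjusted p = 0.00944), and the call was lost without S. paradoxus replicate 2 or 3 or S. cerevisiae replicate 2. RPS23A (YGR118W), of the small subunit, had 77.3, 0 and 47.5 CPM in S. paradoxus against 295, 161 and 760 CPM in S. cerevisiae (-3.22 ± 0.91, adjusted p = 0.0392). SUI2 (YJR007W), the alpha subunit of initiation factor eIF2, had 472, 64.5 and 192 CPM in S. paradoxus against 1037, 1739 and 2123 CPM in S. cerevisiae (-2.74 ± 0.73, adjusted p = 0.0279). MRP20 (YDR405W), of the mitochondrial ribosome, had 171, 49.8 and 81.2 CPM in S. paradoxus against 271, 1469 and 1360 CPM in S. cerevisiae, whose replicate 1 was far below the other 2 (-3.34 ± 0.89, adjusted p = 0.0258). In all 3 of these genes the groups did not overlap, which for RPS23A and MRP20 was a condition of their place among the largest falls. The calls of RPS23A, SUI2 and MRP20 held in 2 of the 6 fits each and were lost without S. paradoxus replicate 2 or 3 or S. cerevisiae replicate 2 or 3.

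RPP2A and CBF5, and RSM27 of the mitochondrial ribosome (3.91 ± 0.98, adjusted p = 0.0182), went the other way. RPP2A (YOL039W), a protein of the ribosomal stalk, had 111, 276 and 202 CPM in S. paradoxus against 20.3, 10.0 and 15.4 CPM in S. cerevisiae (3.67 ± 0.89, adjusted p = 0.0137), and its call was lost without S. cerevisiae replicate 2 or 3. CBF5 (YLR175W), the pseudouridine synthase of small nucleolar RNPs, had 189, 765 and 667 CPM in S. paradoxus against 4.88, 56.2 and 160 CPM in S. cerevisiae. S. cerevisiae replicate 3 came close to the lowest S. paradoxus value, and the call (2.88 ± 0.80, adjusted p = 0.0359) was lost without S. paradoxus replicate 2 or 3 or S. cerevisiae replicate 1 or 2. Over the lists, 2 of 72 ribosomal proteins were lower and 1 was higher (median -0.49), 1 of 71 ribosome biogenesis genes was higher (median -0.74), and 1 of 18 translation factors was lower (median 0.33).

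RTP1, YBL029W and YNL092W were among the genes with the largest falls, which were named only where the groups did not overlap. RTP1 (YMR185W), needed for import of RNA polymerase II into the nucleus, had 116, 5.86 and 57.4 CPM in S. paradoxus against 353, 1253 and 3398 CPM in S. cerevisiae. The S. cerevisiae libraries spread widely, but all were above S. paradoxus, and the difference was -4.76 ± 0.98 (adjusted p = 0.00298; up to 0.0492 with 1 library left out). YBL029W had 53.5, 0 and 29.7 CPM in S. paradoxus against 308, 350 and 2224 CPM in S. cerevisiae (-5.02 ± 1.14, adjusted p = 0.00665), and YNL092W had 103, 0 and 3.96 CPM against 452, 778 and 805 CPM (-4.15 ± 1.15, adjusted p = 0.0359). In both genes S. paradoxus was below S. cerevisiae in every library, and neither has a gene name in the annotation used. YBL029W was lost without S. paradoxus replicate 2 or S. cerevisiae replicate 3, and YNL092W without S. paradoxus replicate 2 or 3 or S. cerevisiae replicate 2 or 3.

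The stress-induced Hsp70 chaperone gene SSA4 (YER103W) had 132, 114 and 65.3 CPM in S. paradoxus against 1008, 1143 and 905 CPM in S. cerevisiae. Both groups were tight and far apart (-3.29 ± 0.85, adjusted p = 0.0207), although the fit lost the call without any 1 of the S. paradoxus libraries or S. cerevisiae replicate 2 (adjusted p up to 0.128). SSA4 was the single gene of 20 in the heat shock and antioxidant list to be called (median -0.59). HSP12 (YFL014W), a membrane-protecting stress protein, had 11071, 9574 and 9760 CPM in S. paradoxus and 3167, 2891 and 3400 CPM in S. cerevisiae. Its groups were also tight and did not overlap, yet the difference of 1.68 ± 0.71 had an adjusted p of 0.241. AQY1 (YPR192W), the water channel of spores, had 51.4, 8.79 and 196 CPM in S. paradoxus against 236, 1770 and 1224 CPM in S. cerevisiae. Here S. cerevisiae replicate 1 was just above the highest S. paradoxus value, and the call (-3.65 ± 0.89, adjusted p = 0.0137) was lost without S. paradoxus replicate 1 or 2 or S. cerevisiae replicate 2.

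AQY1 belongs to the list of spore wall and late sporulation genes, of which 1 of 14 was lower and 1 higher, with a median of -0.38. The higher one was SPG5 (YMR191W), a proteasome regulator needed in stationary phase, with 2659, 2577 and 2599 CPM in S. paradoxus against 674, 450 and 517 CPM in S. cerevisiae. Its replicates agreed more closely than those of most genes (2.26 ± 0.65, adjusted p = 0.0477), but the call held in 0 of the 6 fits that left out 1 library. DIT1 (YDR403W), which makes the dityrosine precursor of the outer spore wall, had 29.5, 35.2 and 633 CPM in S. paradoxus and 165, 1794 and 200 CPM in S. cerevisiae, so that 1 library in each species was far above the others. It differed by -1.63 ± 1.12 (adjusted p = 0.515), and by 0.35 without S. cerevisiae replicate 2.

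Among the genes higher in S. paradoxus were transporters and cell wall proteins. ZRT1 (YGL255W), the high-affinity zinc transporter, had 236, 363 and 665 CPM in S. paradoxus against 50.4, 5.01 and 57.4 CPM in S. cerevisiae. The groups were clearly apart (3.49 ± 0.78, adjusted p = 0.00653), and only leaving out S. cerevisiae replicate 2 ended the call (adjusted p = 0.0875). HSP150 (YJL159W), a secreted glycoprotein of the cell wall, had 1769, 830 and 1010 CPM in S. paradoxus against 163, 204 and 88.2 CPM in S. cerevisiae (2.99 ± 0.67, adjusted p = 0.00633), and was lost only without S. cerevisiae replicate 3 (adjusted p = 0.0636). PIR3 (YKL163W), of the same family of wall proteins, had 514, 454 and 222 CPM in S. paradoxus against 78.8, 13 and 5.6 CPM in S. cerevisiae. SIM1 (YIL123W), a wall protein of the SUN family, had 46.9, 475 and 180 CPM in S. paradoxus against 6.50, 2.01 and 19.6 CPM in S. cerevisiae. PIR3 (3.59 ± 0.97, adjusted p = 0.0279) and SIM1 (4.66 ± 1.22, adjusted p = 0.023) had no overlap between the groups. The first was lost without S. paradoxus replicate 1 or 2 or S. cerevisiae replicate 2 or 3, and the second without S. paradoxus replicate 2 or S. cerevisiae replicate 1 or 2. HSP150, PIR3 and SIM1 were the 3 called among 24 cell wall genes, of which 13 were positive and 11 negative (median 0.26). Over all tested genes 0.885% were called higher.

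SFC1 and IDP2 serve the use of acetate. SFC1 (YJR095W), which carries succinate into mitochondria in exchange for fumarate, had 1534, 1237 and 980 CPM in S. paradoxus against 394, 189 and 99.4 CPM in S. cerevisiae. All S. paradoxus values were above all S. cerevisiae values (2.46 ± 0.65, adjusted p = 0.0258), with the call lost without S. paradoxus replicate 1 or S. cerevisiae replicate 2 or 3. IDP2 (YLR174W), the cytosolic isocitrate dehydrogenase, had 1989, 2028 and 2055 CPM in S. paradoxus against 601, 780 and 363 CPM in S. cerevisiae. Its S. paradoxus replicates were nearly equal, and the difference of 1.8 ± 0.52 (adjusted p = 0.0482) was called in 0 of the 6 fits that left out 1 library. These were the 2 called of 16 genes of gluconeogenesis and acetate use, beside 0.885% called higher over all tested genes. Of the 16, 13 were positive (median 0.47). None of 8 genes of the TCA cycle was called, and all 8 were positive, from 0.21 to 1.44. The summed level of those 8 was 12645, 9415 and 12098 CPM in S. paradoxus and 9116, 5547 and 6070 CPM in S. cerevisiae, so the groups did not overlap, by a small margin.

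**Figure D2:**
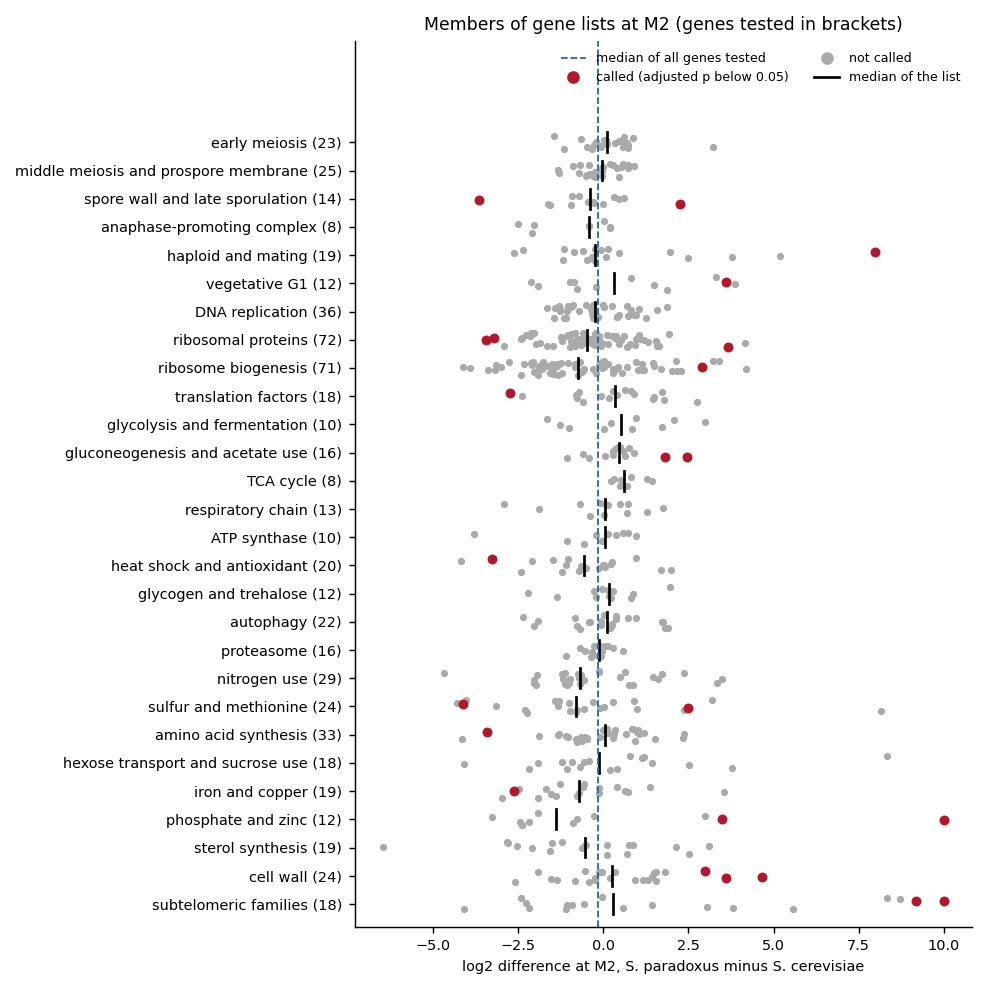
Log2 difference at M2, S. paradoxus minus S. cerevisiae, of the tested members of 28 gene lists with at least 8 tested members. Grey points are genes not called, red points called genes, black bars list medians and the dashed line the median of all tested genes, -0.16. Called genes are scattered over the lists, with 3 among cell wall genes and 3 among 72 ribosomal proteins, beside 1.54% of all tested genes.

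The sequence letters that lead transcription factors to CYS3, FET3 and ZRT1 are well known in S. cerevisiae, and are shown as examples. Few members of the lists with these genes were called, so they do not stand for the sulfur, iron and zinc systems. CYS3 is a target of the sulfur regulators Cbf1 and Met4 (motif CACGTG), FET3 of the iron sensor Aft1 (core GCACCC), and ZRT1 of the zinc sensor Zap1 (ACCTT, any 1 base, AAGGT). These stretches are from the S. cerevisiae R64 reference genome, plus strand, 5' to 3', with the motif in capitals.
CYS3, chrI:130571-130600: taattagccattCACGTGatctcagccagt
FET3, chrXIII:388560-388589: atcttcaaaagtGCACCCatttgcaggtgc
ZRT1, chrVII:20765-20794: acatatttgACCTTGAAGGTcatggaaagt
The motifs start 216, 250 and 204 bases before the start of CYS3, FET3 and ZRT1, outside any annotated gene, and FET3 has a second match on the other strand at 380 bases. On either strand, within 500 bases before the start, the CACGTG letters occur in 6.23% of 6000 protein-coding genes of R64, GCACCC in 7.62% and the Zap1 letters in 0.15%. Among the other called genes with counts in both species, IDP2 and PHO12, both higher in S. paradoxus, also have the CACGTG letters. CYS3 and VMA4, both lower, also have the GCACCC letters. The matching sequence of S. paradoxus was not used here, and a match is a description of these letters and not evidence of binding.

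The largest rises, also named only where the groups did not overlap, met a group that was at or near 0 in S. cerevisiae. SYF2 (YGR129W), a splicing factor, had 246, 117 and 198 CPM in S. paradoxus against 0, 0 and 1.4 CPM in S. cerevisiae, or 1 read in all. MPH2 (YDL247W), an alpha-glucoside permease of the chromosome ends, had 544, 487 and 426 CPM in S. paradoxus against 0, 0 and 2.80 CPM in S. cerevisiae. Both groups of both genes were far apart, with differences of 8.78 ± 1.88 and 9.19 ± 1.95 (adjusted p = 0.00376 for each), and both were lost without S. cerevisiae replicate 2 (adjusted p = 0.0514). YPL257W, with no gene name in the annotation, had 194, 419 and 105 CPM in S. paradoxus and no read in S. cerevisiae. Against a floor of 3 counts over the S. cerevisiae group it was at least 197-fold higher (adjusted p = 0.0011; 0.00128 to 0.0162 with 1 library left out).

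FEX1 (YOR390W), a fluoride exporter, with 113, 240 and 49.5 CPM, and PHO12 (YHR215W), an acid phosphatase, with 76.4, 5.86 and 91.1 CPM in S. paradoxus, were also at 0 in the 3 S. cerevisiae libraries. By the same floor they were at least 113-fold and at least 71.7-fold higher (adjusted p = 0.0279 and 0.0165). FEX1 was lost without S. paradoxus replicate 2 or any 1 S. cerevisiae library, and PHO12 without any 1 S. cerevisiae library. In R64, MPH2, FEX1 and PHO12 each have a copy elsewhere that is 99.9%, 99.3% and 99.7% identical (MPH3, FEX2 and PHO11), so counts may be split between copies and the levels of these genes are uncertain. ZRT1 and PHO12 were the 2 called of 12 phosphate and zinc genes, beside 0.885% called higher over all tested genes. The median of the 12 was -1.41, with 9 negative.

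BAR1 (YIL015W), the secreted protease with which a-type cells destroy alpha-factor, had 157, 425 and 352 CPM in S. paradoxus against 0, 1.00 and 2.80 CPM in S. cerevisiae. The difference was 8.0 ± 2.01 (adjusted p = 0.0185) and was lost without any 1 S. cerevisiae library. Of the other genes of a-type cells among the markers, the pheromone gene MFA2 had 64.8, 205 and 63.3 CPM in S. paradoxus against 0, 18.0 and 42.0 CPM in S. cerevisiae, without overlap. Its difference was 2.47 (adjusted p = 0.569), while the pheromone gene MFA1 and the receptor gene STE2 differed by -1.19 and 0.13, none of the 3 with a call. In all, 1 of 19 haploid and mating genes was called. RSN1 (YMR266W) had 231, 393 and 212 CPM in S. paradoxus against 0, 6.02 and 0 CPM in S. cerevisiae (7.05 ± 1.74, adjusted p = 0.0155) and was lost without S. cerevisiae replicate 1 or 3. FMP25 (YLR077W), a mitochondrial protein, had 152, 273 and 41.6 CPM in S. paradoxus against 0.813, 5.01 and 5.6 CPM in S. cerevisiae (5.37 ± 1.22, adjusted p = 0.00665) and was lost without S. cerevisiae replicate 1 or 2. YCR001W (5.29 ± 1.48, adjusted p = 0.0386) was called in 1 of the 6 fits, that without S. paradoxus replicate 1.

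The other called genes were named after their values were seen. Lower were NUM1 (-2.53), which anchors mitochondria and dynein at the cell cortex, TAZ1 (-2.41), the cardiolipin acyltransferase, VMA4 (-2.30), a subunit of the vacuolar proton pump, ADE57 (-2.90), of purine synthesis, YGR266W (-2.65), RDL1 (-2.81), a thiosulfate sulfurtransferase, MEO1 (-3.74) and YBR126W-B (-3.80). In RDL1, MEO1 and YBR126W-B the groups overlapped because of S. cerevisiae replicate 1. RDL1 had 833, 718 and 875 CPM in S. paradoxus against 661, 7218 and 9100 CPM in S. cerevisiae. MEO1 (YBR126W-A) had 224, 2.93 and 416 CPM in S. paradoxus against 86.1, 4135 and 4423 CPM in S. cerevisiae, and YBR126W-B, named for the same locus, followed it in every library; reads counted for both were not looked for. Higher were RSM27 (3.91), of the mitochondrial ribosome, YOS9 (4.08), a lectin of protein quality control, MNS1 (3.11), the mannosidase of the same pathway, MID2 (3.60), a sensor of cell wall stress, TAF12 (3.00), of the general factor TFIID and of SAGA, ELF1 (2.89), a transcription elongation factor, and SRL3 (3.11). MID2 overlaps YLR331C on the other strand in R64, and reads of the 2 cannot be told apart without strand. The calls of these 15 genes held in 1 to 3 of the 6 fits with 1 library left out. Those of all but MID2 were lost without S. cerevisiae replicate 2, those of all but ADE57 without S. cerevisiae replicate 3, and each was also lost without at least 1 S. paradoxus library.

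Genes with no count in any library of 1 species were set apart by that rule alone, and MPH2 and FEX1 came near it. Over all 12 libraries of a species these had 2 and 6 reads in S. cerevisiae, against 4895 and 2076 in S. paradoxus. At 0 in all 12 S. cerevisiae libraries were 65 genes, of which 40 had counts in S. paradoxus at M2, 31 passed the filter and 10 were called. At 0 in all 12 S. paradoxus libraries were 30 genes, of which 22 had counts in S. cerevisiae at M2, 13 passed and 9 were called. With these included, 66 of 3094 genes were called, or 2.13%. What puts the genes at 0 in a species there was not tested. They were picked for zeros that include the M2 libraries. Their calls, fold bounds and fits with 1 library left out follow largely from that choice and give no separate support. KEX1 (YGL203C), the carboxypeptidase that trims alpha-factor, had 475, 352 and 265 CPM in S. paradoxus and no read in S. cerevisiae, and was at least 438-fold higher (adjusted p = 2.94e-07). RUF5-2, a non-coding RNA, had 102, 322 and 176 CPM in S. paradoxus and none in S. cerevisiae, and was at least 122-fold higher (adjusted p = 2.94e-07). ERR1 (YOR393W), an enolase-related gene with copies up to 100% identical in R64, had 259, 26.4 and 499 CPM in S. paradoxus (adjusted p = 0.00944). YNL033W, which also has a near-identical copy (YNL019C), had 381, 0 and 107 CPM in S. paradoxus (adjusted p = 0.0153). YPL283W-B had 140, 378 and 37.6 CPM there (adjusted p = 0.0132). RUF5-2 and YPL283W-B were not matched to R64 by name, so copies of these genes were not looked for.

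In the other direction SDH9 (YJL045W), a minor form of the flavoprotein subunit of succinate dehydrogenase, had 0 in each S. paradoxus library against 980, 455 and 713 CPM in S. cerevisiae, and was at least 1250.4-fold lower (adjusted p = 8.44e-09). Its neighbour YJL043W had 653, 974 and 458 CPM in S. cerevisiae and was at least 1211-fold lower (adjusted p = 2.9e-06). TIF4631 (YGR162W), the scaffold eIF4G of translation initiation, had no read in S. paradoxus against 398, 85.2 and 104 CPM in S. cerevisiae, at least 374-fold lower (adjusted p = 3.02e-06). KTD1 (YAR028W) had 223, 98.3 and 297 CPM in S. cerevisiae (adjusted p = 0.022). HMRA1 (YCR097W), the silent copy of a mating-type gene, had 82.9, 239 and 225 CPM there (adjusted p = 0.023). Whether these reads came from the silent copy or from an active copy of the same gene was not looked for. KEX1, RUF5-2, SDH9, YJL043W and TIF4631 were called in all 6 fits with 1 M2 library left out, ERR1 and YPL283W-B in 3 (lost without any 1 S. cerevisiae library), YNL033W in 2 (lost also without S. paradoxus replicate 1), KTD1 in 2 and HMRA1 in 1 (both lost without any 1 S. paradoxus library or S. cerevisiae replicate 3, HMRA1 also without S. cerevisiae replicate 2).

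Some of these genes are neighbours by name. YJL041W (NSP1), YJL042W (MHP1), YJL043W and YJL045W (SDH9) had no read in S. paradoxus, while YJL039C (NUP192) and YJL044C (GYP6) had none in S. cerevisiae. Likewise YGL202W (ARO8) had no read in S. paradoxus, while its neighbours YGL201C (MCM6) and YGL203C (KEX1) had none in S. cerevisiae, and YGR162W, YGR163W (GTR2) and YGR164W had none in S. paradoxus. Among 3062 names of open reading frames, 3058 end in W, for the Watson strand, and 4 in C. The 4 that end in C were the 4 just named, all without a read in S. cerevisiae. In the hybrid at M2 the S. cerevisiae allele was at 0 in all 4 libraries for 64 of the 65 genes and the S. paradoxus allele for 29 of the 30. The other allele had counts there for just 34 of the 65 and 16 of the 30, so that many of these zeros stand beside a zero of the other allele. Over all 16 hybrid libraries, the allele of the species at 0 did have counts for 25 of the 65 genes and 17 of the 30, for 9 and 13 of them in hybrid T0 replicate 1 alone, a library whose allele counts stand apart from the rest. NSP1, of the nuclear pore core, and MCM6, of the replicative helicase, are essential genes in S. cerevisiae.

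Alleles in the hybrid give a second readout from other libraries, in which both genomes share 1 nucleus. The allele counts are for the same features as the species counts. A difference between the genomes in how reads are assigned to a gene would thus enter both readouts, and this was not tested. In the hybrid, 38 of 2971 genes were called between the S. paradoxus and S. cerevisiae alleles at M2 (1.28%). Of the 47 genes called between the species, all had an allele value and 44 had the same sign (93.6%), against 66.4% of all tested genes. The exceptions were YBR126W-B (0.14), VMA4 (0.12) and MID2 (-0.01), all near 0. Called between the alleles in the same direction were 10 of the 47, and 0 in the other direction. These are MPH2, PHO12, SYF2, RSN1, RSM27 and SFC1, higher from the S. paradoxus allele, and SSA4, NUM1, TAZ1 and YGR266W, lower. Among them MPH2 and PHO12 have the near-identical copies given above. Hybrid T0 replicate 1, which enters the same fit, had 65.5% of its allele counts on the S. paradoxus allele, against 49.5% to 52.0% in the other 15 hybrid libraries, and 47 genes were called without it. Leaving out 1 hybrid M2 library reduced the 38 genes to between 13 and 22.

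SFC1 had 972, 2520, 125 and 593 reads of its S. paradoxus allele in hybrid replicates 1 to 4, against 352, 414, 4 and 134 of its S. cerevisiae allele. The S. paradoxus allele was ahead in all 4 libraries, by 2.63 ± 0.52 on the log2 scale (adjusted p = 0.00165), close to the species difference of 2.46. SSA4 had 47, 54, 0 and 196 reads of its S. paradoxus allele against 974, 1722, 140 and 802 of its S. cerevisiae allele. The S. cerevisiae allele was ahead in all 4 libraries, and the allele difference was -4.59 ± 1.13 (adjusted p = 0.02). NUM1 had 463, 823, 0 and 294 reads of its S. paradoxus allele against 2404, 5045, 102 and 2791 of its S. cerevisiae allele (-3.43 ± 0.72, adjusted p = 0.00294). SYF2 had 183, 590, 100 and 339 reads of its S. paradoxus allele against 4, 36, 0 and 2 of its S. cerevisiae allele (6.11 ± 1.5, adjusted p = 0.02). In NUM1 the S. cerevisiae allele and in SYF2 the S. paradoxus allele led in every library. CYS3 had 91, 280, 0 and 1 reads of its S. paradoxus allele against 433, 994, 5 and 402 of its S. cerevisiae allele, with a difference of -3.63 ± 1.11 that was not called (adjusted p = 0.0809). The cell wall genes HSP150 (0.85), PIR3 (0.29) and SIM1 (0.08) had allele differences well below their species differences of 2.99, 3.59 and 4.66, but the gap between both kinds of difference was not tested.

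**Figure D3:**
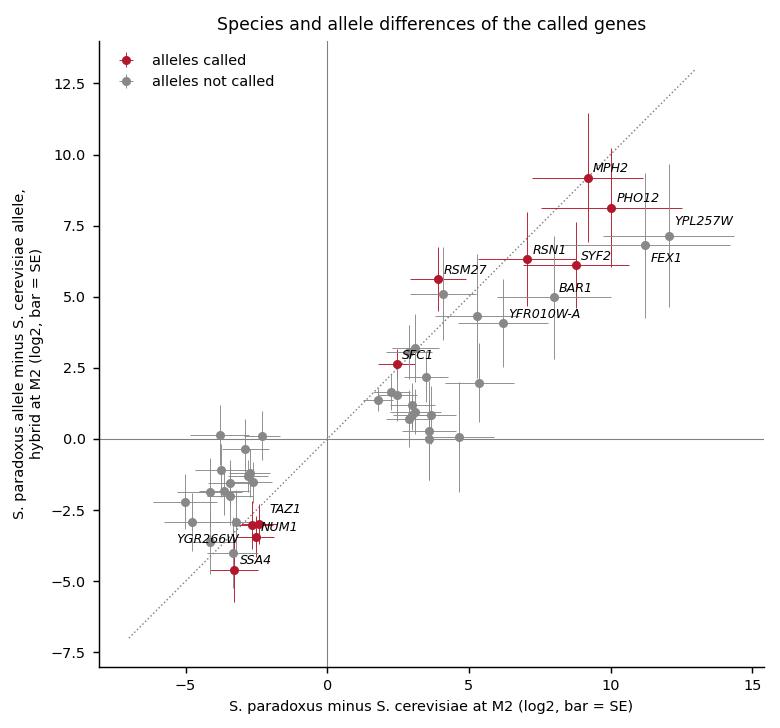
Species difference at M2 (x axis, S. paradoxus minus S. cerevisiae) and allele difference in the hybrid at M2 (y axis, S. paradoxus allele minus S. cerevisiae allele) of the 47 called genes, both in log2 with SE bars. Red points are the 10 genes called between alleles, and the dotted line marks equality. In 44 of 47 genes both differences have the same sign.

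The called genes were next followed through the earlier stages, in other libraries. Of the 47, 32 had the same sign at T0, 33 at M1 and 42 at M1M2 (68.1%, 70.2% and 89.4%), against 56.2%, 53.8% and 59.9% of all tested genes. They were called the same way in 5, 4 and 7 cases, where the backgrounds were 4.43%, 2.3% and 2.85%. MPH2 was called at each of the 4 stages, with differences of 10.58 at T0 and 10.70 at M1M2, but had just 2 reads in all 12 S. cerevisiae libraries. AQY1 was also called at each stage, with -3.04 at T0 and -4.46 at M1M2. By contrast SSA4 was called in opposite directions at M2 and T0. At T0 it had 876, 447 and 1460 CPM in S. paradoxus against 104, 69.5 and 68.7 CPM in S. cerevisiae (3.52, adjusted p = 0.00587). Its difference at M2 minus that at T0 was -6.81 ± 1.2 (adjusted p = 0.00142).

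**Figure D4:**
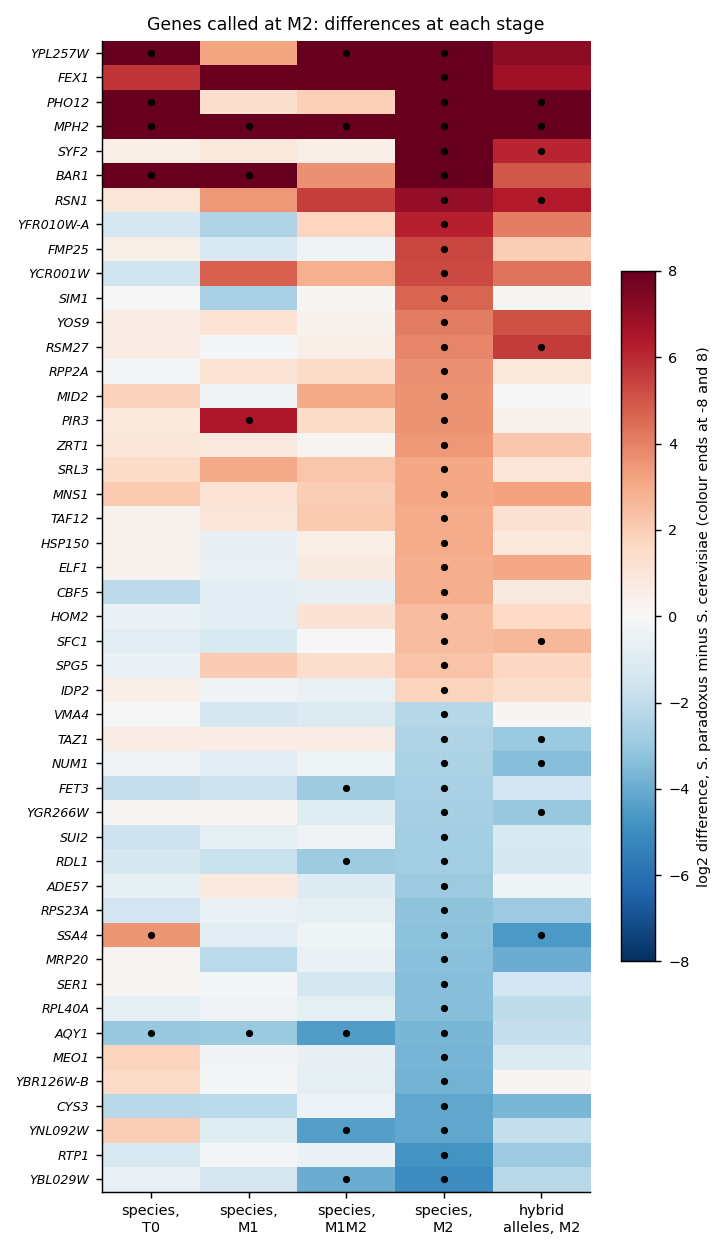
Differences of the 47 called genes at T0, M1, M1M2 and M2 (S. paradoxus minus S. cerevisiae, log2) and between hybrid alleles at M2. Red is higher in S. paradoxus, blue lower, and dots mark adjusted p below 0.05. MPH2 and AQY1 keep a dot at all 4 stages, and SSA4 changes colour between T0 and M2.

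Whether the species difference at M2 was other than at T0 was tested directly. For 47 genes it was (1.54%), with the difference higher at M2 in 15 (0.492%) and lower in 32 (1.05%), and 436 genes had an unadjusted p below 0.05. The median of this difference over all genes was -0.24, and scaling by size factors moved it by 0.21. RGI1 (YER067W), a gene linked to respiratory growth, had 96.9, 17.6 and 65.3 CPM in S. paradoxus and 0, 211 and 91.0 CPM in S. cerevisiae at M2. At T0 it had 3526, 6905 and 506 CPM in S. paradoxus against 12.1, 2.17 and 0.340 CPM in S. cerevisiae. The groups overlapped at M2 and were far apart at T0, and the change in the difference was -10.15 ± 1.99 (adjusted p = 0.00371), called in all 12 fits that left out 1 library. YHB1 (YGR234W), the flavohemoglobin that detoxifies nitric oxide, had 66.2, 14.7 and 19.8 CPM in S. paradoxus against 310, 254 and 172 CPM in S. cerevisiae at M2. At T0 it had 195, 218 and 489 CPM in S. paradoxus against 6.03, 5.43 and 0 CPM in S. cerevisiae. The order of its values was thus opposite at the 2 stages, though YHB1 was not called at M2 (adjusted p = 0.298). The change in its difference was -9.14 ± 2.07 (adjusted p = 0.0116), a call lost only without S. cerevisiae T0 replicate 3 (adjusted p = 0.055). YLR177W changed in the same direction (-7.04 ± 1.64, adjusted p = 0.0125) and was called in 7 of 12 such fits. Its difference at M2 alone was not called (adjusted p = 0.132).

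SYF2 went the other way. At M2 its S. cerevisiae values were 0, 0 and 1.4 CPM, but at T0 it had 108, 60.6 and 77.4 CPM in S. paradoxus and 44.9, 82.5 and 41.2 CPM in S. cerevisiae, with overlapping groups. The change in the difference was 8.23 ± 2.18 (adjusted p = 0.0346). YFR010W-A (7.64 ± 2.00, adjusted p = 0.0333) and YCT1 (YLL055W), a cysteine transporter (7.03 ± 1.92, adjusted p = 0.0414), also moved upward, but SYF2, YFR010W-A and YCT1 were called in just 3, 5 and 3 of 12 fits with 1 library left out. YCT1 was also lost without the 4 shallow libraries (adjusted p = 0.121) and with the replicate number as a block (adjusted p = 0.0547). YFR010W-A had 88.9, 20.5 and 362 CPM in S. paradoxus against 0.813, 4.01 and 1.4 CPM in S. cerevisiae at M2 (6.21 ± 1.60, adjusted p = 0.0205), which was lost without S. paradoxus replicate 3 or any 1 S. cerevisiae library.

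**Figure D5:**
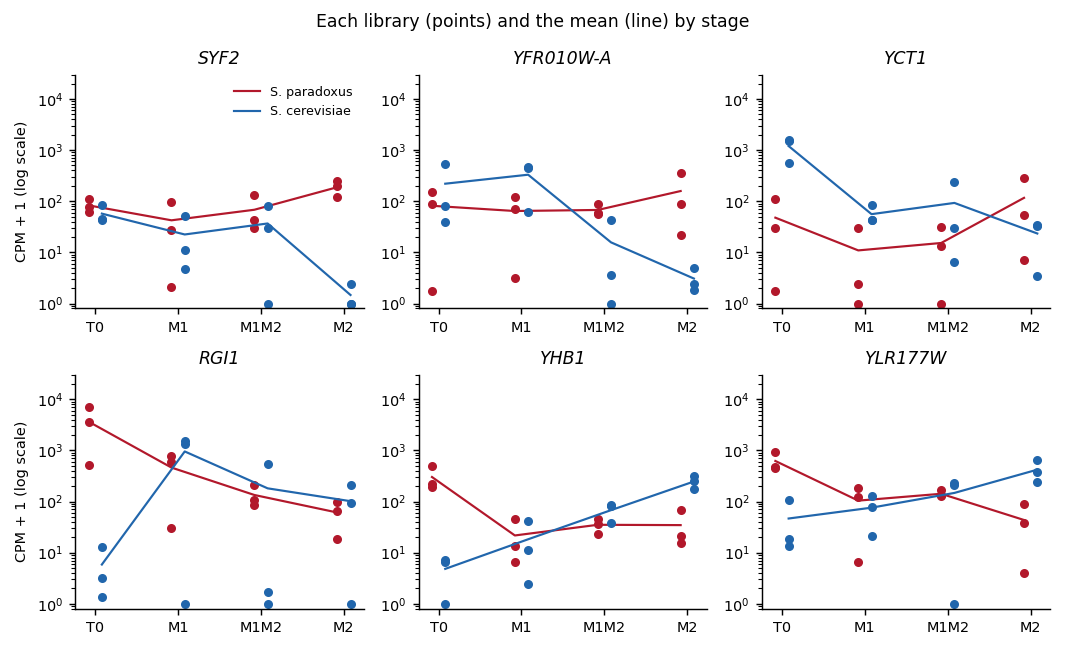
CPM + 1 on a log scale at T0, M1, M1M2 and M2 of the 6 genes named for the test of M2 against T0, with S. paradoxus in red and S. cerevisiae in blue. Points are libraries and lines join group means. RGI1, YHB1 and YLR177W are above S. cerevisiae at T0 in S. paradoxus, and YHB1 and YLR177W are below it at M2, where neither was called.

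Against M1M2, the stage before, 6 genes differed (0.197%), all with a higher S. paradoxus minus S. cerevisiae difference at M2, and 287 had an unadjusted p below 0.05. These are NCW1 (5.67 ± 1.36, adjusted p = 0.0497), a cell wall protein, GSY2 (4.49 ± 1.02), the main glycogen synthase, DIP5 (4.36 ± 1.01), an amino acid permease, PGK1 (4.05 ± 0.92), phosphoglycerate kinase, HYP2 (3.88 ± 0.87), the translation factor eIF5A, and FUM1 (3.31 ± 0.77), fumarase, with an adjusted p of 0.0374 for the last 5. PGK1 had 1489, 1856 and 717 CPM in S. paradoxus against 504, 180 and 286 CPM in S. cerevisiae at M2. At M1M2 it had 1544, 2502 and 985 CPM in S. paradoxus and 7274, 9883 and 2942 CPM in S. cerevisiae. The order of the values was thus opposite, though the difference of PGK1 at M2 was not called (adjusted p = 0.0733). S. cerevisiae M1M2 replicate 2, the shallowest library, held 33826 CPM of HYP2 against 4285 and 2312 CPM in replicates 1 and 3. It likewise held 7874 CPM of NCW1 against 410 and 129 CPM, 8276 CPM of GSY2 against 845 and 691 CPM, and 18962 CPM of FUM1 against 5568 and 3693 CPM. Without this library the calls of NCW1, GSY2, HYP2 and FUM1 were lost, and without the 4 shallow libraries all 6 were (adjusted p = 0.699 for NCW1, 0.276 for GSY2, 0.109 for HYP2 and 0.066 for DIP5, PGK1 and FUM1). HYP2 has a copy in R64, ANB1, that is 91.1% identical, and its level is uncertain. With size factors all 6 had an adjusted p of 0.0701, and with 1 library left out they passed in 3 to 5 of 12 fits.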

How the data were processed

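The tables hold raw counts as deposited by the authors, whole numbers of reads per gene and library. Bowtie 0.12.7 and DESeq 1.8.3 are named, with no role given, in the submitters' processing notes. The counting tool, strand setting, genome builds and annotation are not given in the sources used here. A second deposited table gives hybrid counts by allele. Features that name no gene (246 of 3463) were left out, and they took 1.80% to 3.08% of the counts in the S. paradoxus M2 libraries and 1.53% to 4.95% in those of S. cerevisiae. The column totals of genes at M2 ran from 300704 to 4163541, which limits what can be seen in low genes.

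All 40 libraries were fitted in edgeR 4.0.16 (R 4.3.3) with 12 species and stage groups, TMM scaling, its default filter on low counts and the quasi-likelihood F test. Every adjusted p in the text is from this test with Benjamini-Hochberg adjustment over all genes tested, unless another is named. SE is the log2 difference divided by the square root of F. The common coefficient of variation between replicates was 0.871. Alleles were compared within hybrid libraries with the library as a block. The fit was tested on simulated data for the M2 contrast and both stage tests, and not for the alleles or the other stages. Alternatives were DESeq2 1.42.0, size factors, no filter, leaving out libraries, a replicate block and smaller sets of libraries.

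Genes were named by rule: up to 4 called members of each gene list and the 10 largest rises and falls without overlap, each with a mean of at least 50 counts, the 5 highest genes of each side at 0 in one species, 6 per stage test, and IME2, NDT80, CLB1, CLB3, DIT1 and HSP12. Other names were chosen after their values were seen. Members, lists and tests were chosen with earlier results of these data known. Gene names and sequences came from the RefSeq R64 assembly of S. cerevisiae, which matched 2766 of 3062 open reading frame names. That copies of a gene are near-identical means at least 90% identity in R64.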

Additional observations from a re-analysis of the deposited data

Results flagged for a closer look

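Genes whose species difference at M2 differed from that at another stage, by the test of that difference, are given with the change in S. paradoxus minus S. cerevisiae on the log2 scale. Against T0 the change was 8.23 in SYF2, 7.64 in YFR010W-A and 7.03 in YCT1, and -10.15 in RGI1, -9.14 in YHB1 and -7.04 in YLR177W. Against M1M2 it was 5.67 in NCW1, 4.49 in GSY2, 4.36 in DIP5, 4.05 in PGK1, 3.88 in HYP2 and 3.31 in FUM1. These 6 were not called under size factors, with the replicate block or without the 4 shallow libraries.

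One hybrid library at M2 stood apart in the share of allele counts that fell on the S. paradoxus allele, at 50.6%, where the other 3 lay close together near 51.8%. The gap was large relative to the range of the 4 and small in size, and chance alone marks about 1 in 20 groups in this way.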

How the results depend on the processing

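The number of genes called between the species at M2 was 47, and it was 52 with size factors, 55 without the filter on low counts, 42 with the replicate number as a block, 34 when genes at 0 in a species were left out of the fit, 34 with the 24 parental libraries and 55 with the 6 M2 libraries (45 with their block). It was 72 without the 4 shallow libraries (S. paradoxus M2 replicate 2, S. cerevisiae M1 and M1M2 replicate 2 and hybrid M2 replicate 3), and 173 with the DESeq2 Wald test. Of the 47 genes, 47 were still called with DESeq2, 44 with size factors, 41 with the block, 39 without the 4 shallow libraries, 34 when genes at 0 in a species were left out, 31 with the parental libraries and 28 with the 6 M2 libraries (26 with their block), and none changed sign in any of these fits. With 1 M2 library left out the number ran from 8 (without S. cerevisiae replicate 2) to 41, and was 30 and 25 without S. paradoxus replicates 2 and 3 and 20 without S. cerevisiae replicate 3. The cause was not tested.

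For M2 against T0 the 47 genes became 84 without the shallow libraries, 139 with DESeq2, 36 with size factors and 41 with the block, and 14 to 42 with 1 library left out. It was 14 without S. paradoxus T0 replicate 1 or S. cerevisiae T0 replicate 1 or 3, 19 without S. paradoxus T0 replicate 2, and 26, 21, 22 and 30 without S. paradoxus M2 replicates 2 and 3 and S. cerevisiae M2 replicates 2 and 3. For M2 against M1M2 the 6 genes became 0 with size factors, 0 with the block, 40 with DESeq2 and 0 to 26 with 1 library left out. It was 26, 22 and 16 without S. cerevisiae M1M2 replicates 1 and 3 and S. cerevisiae M2 replicate 1, 6 without S. cerevisiae M1M2 replicate 2, though NCW1, GSY2, HYP2 and FUM1 were then lost, 2 without S. paradoxus M2 replicate 3 and 0 without any other. For the alleles the 38 genes became 28 with size factors, 55 without the filter, 47 without hybrid T0 replicate 1, and 19, 22, 16 and 13 without hybrid M2 replicates 1, 2, 3 and 4.

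Differences that changed sign belonged to genes not called at M2. DIT1 ran from -4.49 (without S. paradoxus M2 replicate 3) to 0.35 (without S. cerevisiae M2 replicate 2). RGI1 ran from -1.30 to 0.45 in such fits and was 0.16 with the 6 libraries and a block. HYP2 ran from -0.24 to 0.25, with 0.048 without S. cerevisiae M2 replicate 1, 0.24 without the shallow libraries, 0.064 with the 6 libraries and 0.029 with their block.

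Pairing by replicate number was checked, since both species carry the numbers 1 to 3. The correlations of deviations from the group means between same-numbered libraries were -0.0135, -0.0388 and 0.0761. Between libraries of different number they ran from -0.0903 to 0.0710. No pairing was seen, but 3 libraries a group, 1 of them shallow, are too few to decide whether the numbers pair the libraries. The block values above are given beside the main fit for that reason.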
